A study of Mus musculus with 2 samples.

Results

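The integrated stress response genes described here are 8 genes, Atf4, Ddit3, Trib3, Chac1, Asns, Sesn2, Xbp1 and Herpud1, of 24130 gene symbols in the matrices. They were chosen by name for their known roles, with earlier results of these data known, and all 8 were found. Hippocampal cells of male mice (strain C57BL/6) were measured one by one with the 10x droplet method in 2 libraries. The EMF+AuNPs library came from mice injected with gold nanoparticles (AuNPs) into the hippocampus and exposed to an electromagnetic field (EMF) between Helmholtz coils for 3 weeks. Mice given saline provided the control library, and the labels do not settle whether these mice also sat between the coils. Both groups were 6 months old by the labels, although the titles call the brain aged, and the tissue of both was dissociated with papain. How many animals were pooled for a library is not stated there.

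The integrated stress response begins with kinases that sense amino acid shortage, misfolded protein in the endoplasmic reticulum (ER), viral RNA or lack of haem and that phosphorylate the initiation factor eIF2. General translation then slows, while the mRNA of the transcription factor ATF4 is translated more, so that ATF4 protein can change with little change in Atf4 mRNA. ATF4 switches on genes for amino acid supply and, when stress lasts, the transcription factor CHOP, which is the product of Ddit3. Xbp1 and Herpud1 belong to the neighbouring unfolded protein response of the ER: the sensor IRE1 cuts a short segment out of Xbp1 mRNA, and HERPUD1 helps to remove misfolded ER proteins. In brain the pathway is known from myelinating cells, secretory cells and neurons.

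A known ATF4 element, the composite site TGATGNAA bound by ATF4 together with C/EBP factors, was searched on both strands from 250 bases before to 50 bases after each gene start. These stretches are shown because this is the known element through which ATF4 acts on its targets, and the capitals mark the match, which is on the opposite strand in Chac1, Trib3 and Herpud1.
Chac1: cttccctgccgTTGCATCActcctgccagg
Trib3: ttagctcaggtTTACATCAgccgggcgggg
Asns: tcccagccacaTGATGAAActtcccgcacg
Herpud1: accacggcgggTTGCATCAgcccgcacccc
The stretches lie at chr2:119351038-119351067 (plus strand), chr2:152344028-152344057 (minus strand), chr6:7693214-7693243 (minus strand) and chr8:94386306-94386335 (plus strand) of GRCm38.p6, and the sequences are from RefSeq. The motif was in 4 of the 8 member promoters, and it was in 3.97% of 32851 mouse promoters of the same length. The 19-base ER stress element, searched in the same way, was in 0 of 8 and in 0.119% of all promoters, and the unfolded protein response element core TGACGTG was in 0 of 8 and in 2.01%. A match is a description of the letters in this window and says nothing of binding.

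The segment that IRE1 removes from Xbp1 mRNA lies in exon 4 of the gene. It is shown in capitals because UMIs (unique molecular identifiers, which count captured mRNA molecules) summed per gene do not tell the cut form from the uncut one.
Xbp1 exon 4: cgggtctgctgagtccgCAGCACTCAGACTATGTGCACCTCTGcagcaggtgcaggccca
The stretch lies at chr11:5524262-5524321 on the plus strand of GRCm38, in the GENCODE annotation, and the removed segment is 26 bases long.

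The EMF+AuNPs library held 7003 barcodes and 19544686 UMIs (median 2310 per barcode), and the control library held 21583 barcodes and 51091452 UMIs (median 1904). Cells were gated into classes by marker genes. The compared classes were astrocyte-like (1595 EMF+AuNPs and 3369 control cells), oligodendrocyte-like (1090 and 5986), endothelial-like (997 and 2695), microglia-like (767 and 3066), red blood cell-like (379 and 147), choroid plexus-like (145 and 419), pericyte-like (122 and 344), smooth muscle-like (106 and 180), ependymal-like (59 and 130) and border macrophage-like (51 and 73). A class is a range cut from a marker score: 350 EMF+AuNPs and 754 control cells of the astrocyte-like class and 118 and 946 of the oligodendrocyte-like class lay near the cut. Markers of other classes were present in every class, and the part of free RNA in them was not tested. Astrocyte markers had a median of 6 to 12 UMIs per cell in the other compared EMF+AuNPs classes, red blood cells aside, and 4 to 8 in the control classes. Choroid plexus markers had medians of 10 to 13 and of 16 to 20. The libraries shared 38 barcodes. Haemoglobin took 4.20% of UMIs in the EMF+AuNPs library and 1.04% in the control library. Levels are UMIs relative to a class total of 1e6 (CPM), ratios are log2 of EMF+AuNPs over control with 1 CPM added, and brackets hold 95% intervals that cover counting error only. With 1 library per group there is no replicate, no difference was tested, and "higher" or "lower" is used from a ratio of 1.5-fold.

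Over whole libraries none of the 8 members reached 1.5-fold. Of 14400 genes with at least 50 UMIs, 10.1% were higher and 7.47% lower in the EMF+AuNPs library, with a median log2 ratio of 0.07. Ddit3 came nearest, with 56.9 CPM in the EMF+AuNPs library and 84.6 CPM in the control library, a log2 ratio of -0.56 (-0.67 to -0.48). Atf4 had 88.4 CPM in the EMF+AuNPs library and 102 CPM in the control library, a log2 ratio of -0.20 (-0.28 to -0.12). Xbp1 and Herpud1 lay on the other side of 0, with log2 ratios of 0.16 (0.08 to 0.24) and 0.27 (0.19 to 0.36). The cell make-up of the libraries differs, and a lower level in a whole library can come from fewer cells of a type or from less RNA per cell, which cannot be told apart without the gates. The accounts by class follow.

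Atf4 encodes the central transcription factor of the pathway and lies at chr15:80255184-80257541 on the plus strand. It was high in microglia-like and endothelial-like cells in both libraries. In microglia-like cells it had 152 CPM (230 UMIs) in the EMF+AuNPs library and 209 CPM (1067 UMIs) in the control library, a log2 ratio of -0.46 (-0.67 to -0.25), which is short of 1.5-fold. With every cell thinned to 1000 UMIs, 10.7% of microglia-like EMF+AuNPs cells and 19.0% of control cells had an Atf4 UMI, a difference of -8.27 points (-11.0 to -5.14). The thinning is a random draw, and the interval leaves out its error. On the same thinned cells, which leave out those under 1000 UMIs (578 EMF+AuNPs and 2758 control cells stayed), the log2 ratio was -0.97, past 1.5-fold. Leaving out the shallower cells without thinning gave -0.44, and the cause of the gap was not tested. Unthinned, the shares were 22.9% and 27.0%. The red blood cell-like class, which shows the share that free RNA and red cells give, had 4.22% in EMF+AuNPs and 5.44% in control at median depths of 1885 and 2523 UMIs, against 1847 and 1551.5 in microglia-like cells.

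In endothelial-like cells Atf4 had 142 CPM in the EMF+AuNPs library and 153 CPM in the control library, a log2 ratio of -0.11 (-0.29 to 0.07). Astrocyte-like cells had 80.3 and 75.5 CPM, a log2 ratio of 0.09 (-0.13 to 0.31), and oligodendrocyte-like cells 64.3 and 66.7 CPM, a log2 ratio of -0.05 (-0.26 to 0.15). The intervals of these 3 classes hold 0. Atf4 was lower in 2 small classes. Border macrophage-like cells had 8 UMIs and 64.1 CPM in the EMF+AuNPs library, against 32 UMIs and 290 CPM in the control library, a log2 ratio of -2.16 (-3.51 to -1.03). Pericyte-like cells had 13 UMIs and 65.6 CPM in the EMF+AuNPs library, against 53 UMIs and 120 CPM in the control library, a log2 ratio of -0.86 (-1.87 to 0.03). Smooth muscle-like, choroid plexus-like and ependymal-like cells had ratios of -0.07, 0.05 and -0.13, with intervals that hold 0. By level, the EMF+AuNPs order began with microglia-like, endothelial-like and smooth muscle-like cells and the control order with border macrophage-like, microglia-like and endothelial-like cells, and in both libraries choroid plexus-like and ependymal-like cells came last. In the EMF+AuNPs library no neighbours in that order had separate intervals. In the control library microglia-like and endothelial-like, pericyte-like and astrocyte-like, and oligodendrocyte-like and choroid plexus-like cells did.

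**Figure D1:**
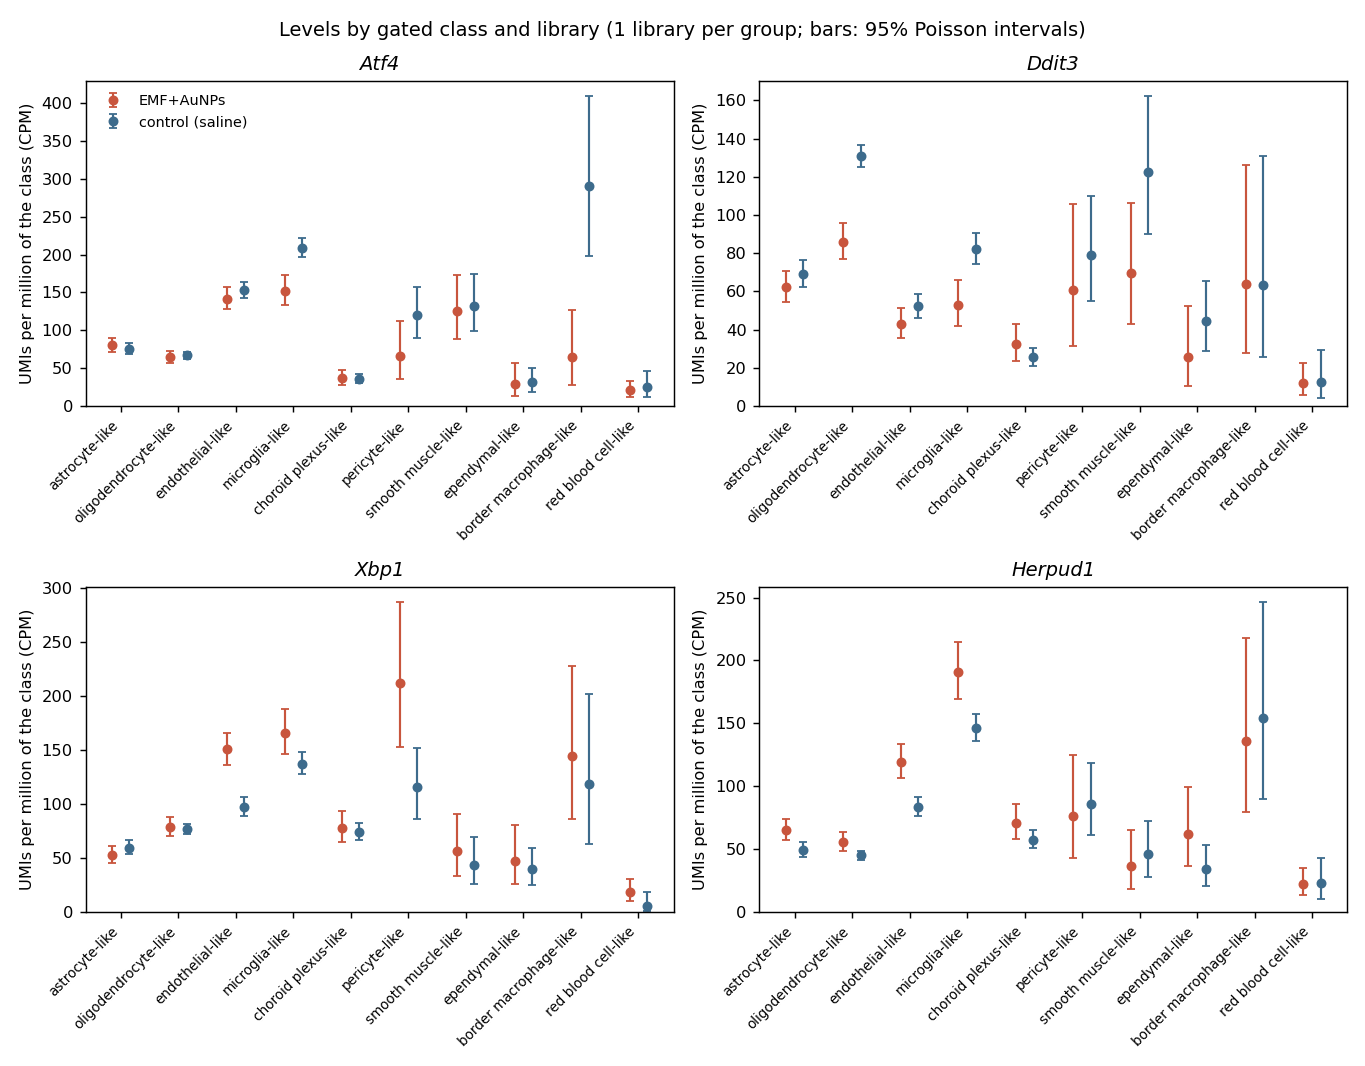
Levels of Atf4, Ddit3, Xbp1 and Herpud1 in CPM of the class (linear axis from 0, own scale per gene) in the 10 compared classes, with EMF+AuNPs to the left of control and bars for 95% Poisson intervals. Ddit3 stands at 85.8 CPM in EMF+AuNPs and 131 CPM in control oligodendrocyte-like cells, and Xbp1 at 150 and 97.1 CPM in endothelial-like cells.

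Ddit3 encodes CHOP, a transcription factor that promotes cell death under lasting ER stress, and lies at chr10:127290774-127296288 on the plus strand. It was lower in oligodendrocyte-like and microglia-like EMF+AuNPs cells. Oligodendrocyte-like cells had the highest level of the gene in both libraries, with 85.8 CPM (323 UMIs) in the EMF+AuNPs library and 131 CPM (1933 UMIs) in the control library. The log2 ratio was -0.60 (-0.78 to -0.44), just past 1.5-fold, and at -0.57 with mixed cells kept and -0.55 with 10 CPM added it fell short of it. At 1000 UMIs per cell, 7.36% of EMF+AuNPs and 12.6% of control oligodendrocyte-like cells had a Ddit3 UMI, a difference of -5.23 points (-6.92 to -3.30). Unthinned shares were 23.9% and 26.0%, since the EMF+AuNPs cells of this class were deeper (median 3369.5 UMIs, against 2317.5 in control). The red blood cell-like share was 2.64% in EMF+AuNPs and 3.40% in control.

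Microglia-like cells had 52.9 CPM of Ddit3 (80 UMIs) in the EMF+AuNPs library and 82.2 CPM (420 UMIs) in the control library, a log2 ratio of -0.63 (-1.0 to -0.29). This call ended at -0.53 with at least 4 markers per cell, -0.57 in cells with at least 1000 UMIs and -0.55 with 10 CPM added. At 1000 UMIs per cell 4.15% of EMF+AuNPs and 7.36% of control cells had a UMI, a difference of -3.21 points (-4.91 to -1.05). Smooth muscle-like cells were also lower, with 21 UMIs and 69.5 CPM in the EMF+AuNPs library, against 48 UMIs and 122 CPM in the control library, a log2 ratio of -0.81 (-1.63 to -0.05). Their difference of shares at 1000 UMIs per cell was -3.99 points (-10.5 to 3.77), which holds 0. Ependymal-like cells had 7 UMIs in the EMF+AuNPs library and 25 in the control library, a log2 ratio of -0.78 (-2.26 to 0.45). In astrocyte-like cells Ddit3 stood at 62.0 CPM in the EMF+AuNPs library and 69.1 CPM in the control library, a log2 ratio of -0.15 (-0.40 to 0.08) that became 0.14 on thinned cells. Endothelial-like cells had 42.9 and 52.1 CPM, a log2 ratio of -0.27 (-0.61 to 0.04). Choroid plexus-like cells had 32.2 and 25.4 CPM, a log2 ratio of 0.33 (-0.18 to 0.84), where the median of all genes was 0.30. Pericyte-like and border macrophage-like cells had ratios of -0.38 and 0.01 from 12 and 8 EMF+AuNPs UMIs. Of the 6 classes with at least 50 UMIs of Ddit3, 5 had a ratio below 0, and 3 of these had the whole interval below 0. By level oligodendrocyte-like and smooth muscle-like cells led in both libraries and choroid plexus-like and ependymal-like cells came last, and no neighbours in either order had separate intervals.

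The annotation holds a further entry named Ddit3 within the first on the same strand, at chr10:127290829-127293753. Whether the counting used this entry is not stated in the labels. The longer Ddit3 gene ends within the end of Mars, the methionyl-tRNA synthetase gene of the opposite strand, and they share 68 bases. It also shares 15 bases with Gm4189 of the opposite strand. Whether the counting used strand is not stated in the labels. Mars had 25.5 CPM in the EMF+AuNPs library and 21.2 CPM in the control library in oligodendrocyte-like cells, a log2 ratio of 0.26 (-0.07 to 0.60). In microglia-like cells it had 47.6 and 33.9 CPM, a log2 ratio of 0.48 (0.07 to 0.90). Mars thus lay on the other side of 0 from Ddit3 in both classes. Herpud1 and Sesn2 likewise overlap antisense genes, Gm15890 over 535 bases and Gm12981 over 6089 bases.

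Cells with a UMI of 1 member were compared with cells without it for each other member, at 1000 UMIs per cell. Each pair was counted once in a class and library, by the share of the second member in cells with and without the first. Among 145 pairs with at least 10 cells, the intervals of the shares lay apart in 1. In control microglia-like cells 4.58% of 524 cells with Atf4 also had Ddit3, against 8.01% of 2234 cells without Atf4. Seen the other way, 11.8% of 203 cells with Ddit3 had Atf4, against 19.6% of 2555 cells without Ddit3. The share was higher in the cells with the first gene in 52 of the 145 pairs. Pairs with a rare member such as Trib3 often had a share of 0 in the cells with the first gene. Such pairs cannot count as higher, and how many pairs would be higher without any link was not computed. Few cells held more than 1 UMI of a member: of 1382 EMF+AuNPs cells with Atf4, 1117 had 1 UMI, and of 4187 control cells 3417 did.

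Trib3 encodes a pseudokinase that is induced by ATF4 and CHOP and dampens them, and lies at chr2:152337422-152344032 on the minus strand. Among gated cells its RNA was almost solely in endothelial-like cells. Of its UMIs in gated cells, 36 of 40 (90.0%, Clopper-Pearson interval 76.3 to 97.2%) were endothelial-like in the EMF+AuNPs library and 68 of 79 (86.1%, 76.5 to 92.8%) in the control library. A further 14 EMF+AuNPs and 31 control UMIs were in cells with markers of several classes and 2 and 2 in cells of no class. Endothelial-like cells held 17.5% of all gated UMIs in EMF+AuNPs and 13.8% in control. The level in that class was 13.5 CPM in the EMF+AuNPs library and 12.8 CPM in the control library, a log2 ratio of 0.07 (-0.55 to 0.68), and the depth did not show a difference. The interval of this class, 9.48 to 18.7 CPM in EMF+AuNPs and 9.96 to 16.3 CPM in control, lay apart from the next in level. Choroid plexus-like cells had 2 UMIs in the EMF+AuNPs library and 5 in the control library, and microglia-like cells had 1 and 4. Astrocyte-like cells held 1 UMI in 1595 EMF+AuNPs cells and 0 in 3369 control cells, which allows a share of cells with a UMI of up to 0.0890%. Oligodendrocyte-like cells held 0 in 1090 EMF+AuNPs cells, which allows up to 0.275% with a UMI, and 1 in 5986 control cells. These limits are for cells with a captured UMI and not for cells that express the gene. Red blood cell-like, pericyte-like, smooth muscle-like and border macrophage-like cells held 0 in both libraries. In EMF+AuNPs the upper limits were 18.6 CPM in pericyte-like, 12.2 CPM in smooth muscle-like and 29.5 CPM in border macrophage-like cells. Ependymal-like EMF+AuNPs cells also held 0, with a limit of 13.4 CPM. Control limits were 8.34 CPM in pericyte-like, 9.40 CPM in smooth muscle-like and 33.4 CPM in border macrophage-like cells. The EMF+AuNPs limits and the control limit of border macrophage-like cells reach into the endothelial-like intervals. The share of endothelial-like cells with a Trib3 UMI was 3.51% in EMF+AuNPs and 2.52% in control, and 1.08% and 1.47% at 1000 UMIs per cell. Nearly all of these cells had 1 UMI.

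Asns encodes asparagine synthetase, which makes asparagine from aspartate and is a classic ATF4 target of amino acid shortage, and lies at chr6:7675169-7693254 on the minus strand. It was rare in glia and vessels and more frequent in control excitatory neuron-like cells. Whole libraries had 6.65 CPM (130 UMIs) in EMF+AuNPs and 5.90 CPM (300 UMIs) in control, a log2 ratio of 0.15 (-0.13 to 0.48). Of the compared classes endothelial-like cells had the most, with 10.9 CPM (29 UMIs) in the EMF+AuNPs library and 8.68 CPM (46 UMIs) in the control library, a log2 ratio of 0.30 (-0.39 to 1.03). Oligodendrocyte-like cells had 4.25 CPM (16 UMIs) and 4.46 CPM (66 UMIs), a log2 ratio of -0.06 (-0.96 to 0.74). Both intervals hold 0. By level, the endothelial-like interval overlapped that of the next class, which was smooth muscle-like in EMF+AuNPs and ependymal-like in control. Astrocyte-like cells had 17 EMF+AuNPs and 15 control UMIs, with a share of cells with a UMI of 1.00% and 0.445%. Microglia-like cells had 0.782% and 0.913%, and oligodendrocyte-like cells 1.47% and 1.07%. Red blood cell-like cells had 1.06% and 1.36%, from 4 and 2 UMIs, so background and expression cannot be told apart in these 3 classes.

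Excitatory neuron-like cells, too few for a comparison, had 2 Asns UMIs in 35 EMF+AuNPs cells and 27 UMIs in 227 control cells. The control level was 52.5 CPM (34.6 to 76.3), against 8.68 CPM in control endothelial-like cells, and the intervals did not overlap. These neurons held 12.9% of the gated Asns UMIs of the control library and 1.34% of all its gated UMIs. Interneuron-like cells had 1 UMI in 7 EMF+AuNPs cells and 4 in 18 control cells, and Cajal-Retzius-like cells had 4 in 37 and 2 in 118. Control Cajal-Retzius-like cells held 0.952% (0.116 to 3.40%) of the gated Asns UMIs and 0.564% of all gated UMIs, so they did not stand out. In EMF+AuNPs these shares were 4.55% (1.25 to 11.2%) and 0.388%. The neuron gates rest on few marker UMIs, with medians of 5 in EMF+AuNPs and 8 in control excitatory neuron-like cells.

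Chac1 encodes an enzyme that breaks down glutathione (chr2:119351229-119354381, plus strand), and Sesn2 encodes sestrin 2, which senses leucine and restrains mTORC1 (chr4:132492032-132510501, minus strand). Both were close to absent at this depth. Chac1 had 13 UMIs in the EMF+AuNPs library and 25 in the control library, 0.67 and 0.49 CPM, each in a cell of its own, and 4 of the 8 gated EMF+AuNPs UMIs and 7 of the 15 gated control UMIs were in endothelial-like cells. Sesn2 had 13 UMIs in the EMF+AuNPs library and 68 in the control library, 0.67 and 1.34 CPM. Its log2 ratio was -0.49 (-1.99 to -0.14) with 1 CPM added and -0.09 with 10 CPM added. The low end of the interval belongs to the ratio with nothing added. Microglia-like cells held 2 EMF+AuNPs and 13 control Sesn2 UMIs, and astrocyte-like cells 4 and 11. Of the control Sesn2 UMIs 24 were in cells with markers of several classes, against 1 in the EMF+AuNPs library.

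**Figure D2:**
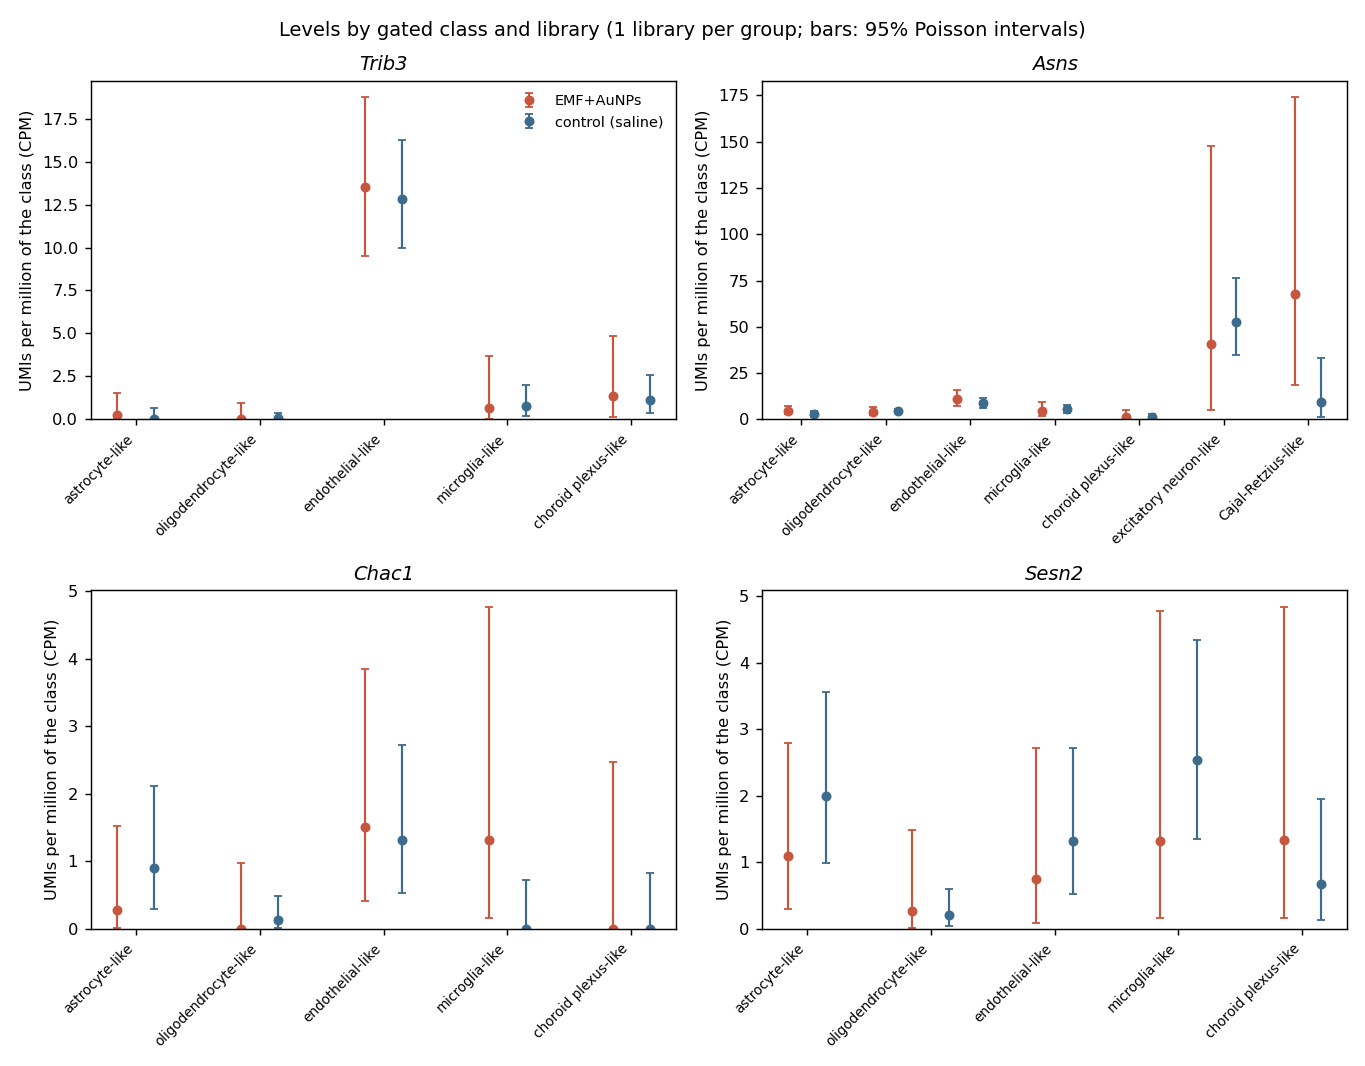
Levels of Trib3, Asns, Chac1 and Sesn2 in CPM of the class (linear axis from 0, own scale per gene), with EMF+AuNPs to the left of control and bars for 95% Poisson intervals. Trib3 is at 13.5 CPM in EMF+AuNPs and 12.8 CPM in control endothelial-like cells and below 2 CPM in the other classes shown. In control Asns is highest in excitatory neuron-like cells.

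Xbp1 encodes the transcription factor of the IRE1 branch, which raises ER folding and secretory capacity, and lies at chr11:5520659-5525893 on the plus strand. It was higher in endothelial-like and pericyte-like cells of the EMF+AuNPs library. Endothelial-like cells had 150 CPM (400 UMIs) in the EMF+AuNPs library and 97.1 CPM (515 UMIs) in the control library, a log2 ratio of 0.63 (0.44 to 0.82). At 1000 UMIs per cell 14.6% of EMF+AuNPs and 9.05% of control endothelial-like cells had a UMI, a difference of 5.57 points (3.10 to 8.24), and unthinned shares were 29.8% and 15.7%. The ratio was just past 1.5-fold, and at 0.57 with mixed cells kept, 0.56 relative to the class median and 0.58 with 10 CPM added it fell short of it. Pericyte-like cells had 212 CPM (42 UMIs) in the EMF+AuNPs library and 115 CPM (51 UMIs) in the control library, a log2 ratio of 0.87 (0.25 to 1.5). Of 103 EMF+AuNPs and 240 control pericyte-like cells at 1000 UMIs, 21.4% and 12.5% had a UMI, a difference of 8.86 points (0.54 to 18.4).

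In microglia-like cells Xbp1 had 166 CPM in the EMF+AuNPs library and 137 CPM in the control library, a log2 ratio of 0.27 (0.06 to 0.48). Oligodendrocyte-like cells had 78.4 and 76.3 CPM, a log2 ratio of 0.04 (-0.15 to 0.23). Astrocyte-like cells had 52.5 and 59.4 CPM, a log2 ratio of -0.17 (-0.44 to 0.08). The gene thus stood above 0 with its whole interval in 3 of the 6 classes with at least 50 UMIs, and below 0 in astrocyte-like cells alone, where the interval holds 0. Choroid plexus-like cells, a secretory epithelium, had 77.8 and 73.8 CPM, a log2 ratio of 0.08 (-0.24 to 0.39). Smooth muscle-like, ependymal-like and border macrophage-like cells had ratios of 0.37, 0.27 and 0.29 from 17, 13 and 18 EMF+AuNPs UMIs, and each interval holds 0. By level pericyte-like, microglia-like and endothelial-like cells led in the EMF+AuNPs library, with no separate neighbours. Microglia-like, border macrophage-like and pericyte-like cells led in the control library, where the intervals of endothelial-like and oligodendrocyte-like cells were separate. Red blood cell-like cells had 15 EMF+AuNPs UMIs and 2 control UMIs, in 3.96% and 1.36% of cells, a log2 ratio of 1.68 (-0.24 to 5.04). The level in this class stood on the same side as in endothelial-like cells, and the part of free RNA in the endothelial-like ratio was not tested. Fibroblast-like cells, which numbered 47 in the EMF+AuNPs library and were not compared, had 246 CPM (170 to 343), against 139 CPM (98.2 to 190) in 113 control cells.

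Herpud1 encodes a membrane protein of ER-associated degradation that is induced by ATF4, ATF6 and XBP1, and lies at chr8:94386438-94395377 on the plus strand. Its ratio was above 0 with the whole interval in the 4 largest classes, without reaching 1.5-fold in any of them. Endothelial-like cells had 119 CPM (317 UMIs) in the EMF+AuNPs library and 83.4 CPM (442 UMIs) in the control library, a log2 ratio of 0.51 (0.30 to 0.73). Astrocyte-like cells had 64.8 and 49.0 CPM, a log2 ratio of 0.39 (0.14 to 0.66). Microglia-like cells had 191 and 146 CPM, a log2 ratio of 0.38 (0.18 to 0.58). Oligodendrocyte-like cells had 55.5 and 44.7 CPM, a log2 ratio of 0.31 (0.08 to 0.54). The median of all genes was 0.06, 0.17, -0.02 and 0.01 in these 4 classes, so the ratio in astrocyte-like cells was 0.22 relative to it. At 1000 UMIs per cell the difference of shares was 4.76 points (2.46 to 7.26) in endothelial-like, 2.15 points (0.57 to 3.92) in astrocyte-like, 3.33 points (0.21 to 6.82) in microglia-like and 1.33 points (-0.02 to 2.96) in oligodendrocyte-like cells. Red blood cell-like shares were 4.22% in EMF+AuNPs and 6.12% in control. Choroid plexus-like cells had 70.5 and 57.3 CPM, a log2 ratio of 0.29, which was that class's median of 0.30. Pericyte-like, smooth muscle-like and border macrophage-like cells had ratios of -0.18, -0.32 and -0.18, and ependymal-like cells 0.85 (-0.16 to 1.89) from 17 UMIs in the EMF+AuNPs library and 19 in the control library. Each of these intervals holds 0. By level microglia-like and border macrophage-like cells led in both libraries. Separate intervals between neighbours were found in the control library, for microglia-like and pericyte-like and for endothelial-like and choroid plexus-like cells.

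**Figure D3:**
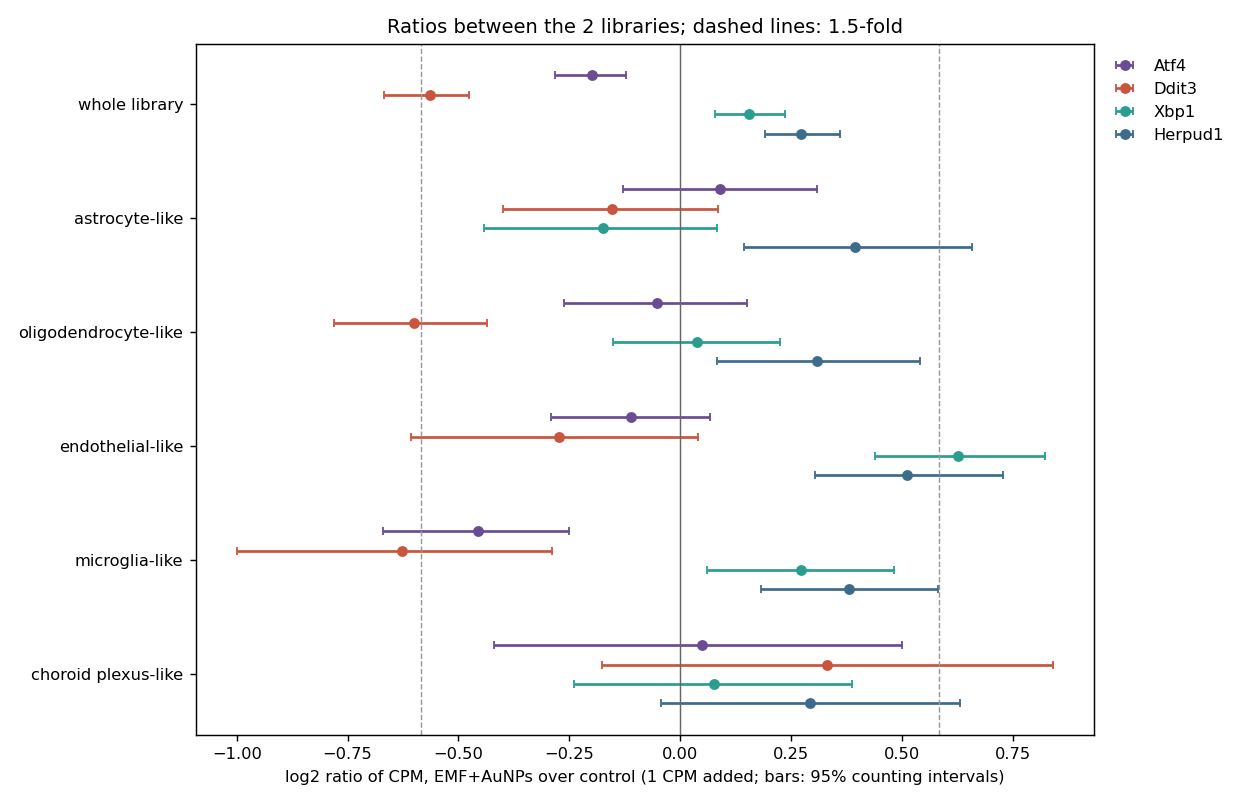
Log2 ratios of EMF+AuNPs over control for Atf4, Ddit3, Xbp1 and Herpud1 in whole libraries and the 5 largest classes with a nucleus, with bars for 95% counting intervals and dashed lines at 1.5-fold. In microglia-like cells Atf4 (-0.46) and Ddit3 (-0.63) lie left of 0 while Xbp1 (0.27) and Herpud1 (0.38) lie right of it.

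Counted by class, few members were past 1.5-fold. Among members with at least 50 UMIs, endothelial-like cells had 1 of 6 higher (Xbp1) and 0 lower, where 10.7% of all genes were higher and 7.62% lower. Oligodendrocyte-like cells had 0 of 5 higher and 1 lower (Ddit3), where 8.16% of genes were higher and 9.43% lower. Microglia-like cells had 0 of 4 higher and 1 lower (Ddit3), where 8.70% were higher and 13% lower. These shares of a few genes are near the background. Astrocyte-like cells had 0 of 4 past 1.5-fold, where 18.0% of genes were higher and 7.96% lower, and choroid plexus-like cells had 0 of 4, where 28.5% were higher and 4.83% lower. Pericyte-like cells had 1 of 3 higher (Xbp1) and 1 lower (Atf4), with 11.0% and 16.6% of genes. Smooth muscle-like cells had 1 of 2 lower (Ddit3), with 13.8% of genes higher and 12.7% lower. The further calls among members of fewer UMIs rest on low counts, such as Chac1 in microglia-like cells with 2 EMF+AuNPs UMIs and 0 control UMIs. In ependymal-like cells 2 of 8 were then higher and 3 lower (13.7% and 10.8% of genes), and in border macrophage-like cells 1 and 1 (12.0% and 13.5%). These percentages are of genes with at least 50 UMIs, which no member had in either class. The member counts of these classes are therefore not comparable with them.

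The wider pathway was read from lists of genes with at least 50 UMIs in the class, beside the shares of all genes past 1.5-fold. Those were 18.0% higher and 7.96% lower in astrocyte-like, 8.16% and 9.43% in oligodendrocyte-like, 10.7% and 7.62% in endothelial-like and 8.70% and 13% in microglia-like cells, and a count near them is not a result about a list. Medians of all genes were 0.17, 0.01, 0.06 and -0.02 in the same order of classes. The eIF2 kinases and the eIF2 and eIF2B subunits had list medians of -0.40 in astrocyte-like, -0.24 in oligodendrocyte-like, -0.28 in endothelial-like and -0.23 in microglia-like cells. In these classes 4 of 11, 1 of 12, 3 of 12 and 2 of 12 were lower, and 1, 0, 0 and 0 were higher. The counts in oligodendrocyte-like and microglia-like cells are near those of all genes. Eif2ak1, the haem-regulated kinase HRI, had the lowest ratio in 3 of them. In endothelial-like cells it had 12.4 CPM in the EMF+AuNPs library and 31.3 CPM in the control library, a log2 ratio of -1.27 (-1.92 to -0.79). In astrocyte-like and oligodendrocyte-like cells its ratios were -0.87 (-1.42 to -0.45) and -0.80 (-1.17 to -0.50). Eif2ak4, the amino acid sensor GCN2, was lowest in microglia-like cells, with 7.27 CPM in the EMF+AuNPs library and 17.4 CPM in the control library, a log2 ratio of -1.16 (-2.31 to -0.35). Eif2s1, the eIF2 subunit that the kinases phosphorylate, had the highest ratio in the other 3, from 0.21 in oligodendrocyte-like to 0.61 in astrocyte-like cells. In microglia-like cells the highest was Eif2s3x, another eIF2 subunit, at 0.57.

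The list of transcription factors and feedback genes had medians of 0.00 in astrocyte-like, -0.09 in oligodendrocyte-like, -0.06 in endothelial-like and -0.11 in microglia-like cells. Of 10, 9, 10 and 10 genes, 2, 0, 1 and 1 were higher and 1, 1, 2 and 2 lower, so its members went both ways. Ppp1r15a, which encodes the GADD34 subunit that reverses eIF2 phosphorylation, was lowest in 3 classes: microglia-like cells had 145 CPM in the EMF+AuNPs library and 277 CPM in the control library, a log2 ratio of -0.93 (-1.15 to -0.73). Endothelial-like cells had 73.7 and 134 CPM, a log2 ratio of -0.85 (-1.09 to -0.63), and in astrocyte-like cells the ratio was -0.63. Ddit4, a stress-induced inhibitor of mTORC1, was lowest in oligodendrocyte-like cells at -0.60 (-0.90 to -0.33). Cebpb, a partner of ATF4, was highest in microglia-like cells, with 132 CPM in the EMF+AuNPs library and 60.7 CPM in the control library, a log2 ratio of 1.11 (0.86 to 1.38), and in astrocyte-like cells at 0.92 (0.33 to 1.78). Atf5, a transcription factor whose mRNA is under translational control like that of Atf4, was highest in endothelial-like cells at 0.68 (0.27 to 1.13), and Eif4ebp1, a translation repressor, in oligodendrocyte-like cells at 0.24 (-0.53 to 1.06).

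Genes of amino acid transport, serine synthesis and one-carbon metabolism, many of them ATF4 targets, had list medians above those of all genes. Their list median was 0.55 in astrocyte-like, 0.51 in oligodendrocyte-like, 0.34 in endothelial-like and 0.33 in microglia-like cells. Of 15, 14, 13 and 14 genes, 6, 4, 4 and 2 were higher and 1, 0, 0 and 0 lower, and the 2 of 14 in microglia-like cells are near the share of all genes. The highest were Gpt2, an alanine aminotransferase, in astrocyte-like cells (64.8 CPM in EMF+AuNPs and 31.9 CPM in control, log2 ratio 1.00, 0.74 to 1.31) and endothelial-like cells (1.06, 0.40 to 2.0). Cbs, which makes cystathionine from homocysteine, was highest in oligodendrocyte-like cells, with 61.7 CPM in the EMF+AuNPs library and 27.4 CPM in the control library, a log2 ratio of 1.14 (0.93 to 1.40). Slc3a2, the heavy chain of amino acid exchangers, was highest in microglia-like cells, with 475 CPM in the EMF+AuNPs library and 299 CPM in the control library, a log2 ratio of 0.67 (0.54 to 0.80). Slc6a9, a glycine transporter, had the lowest ratio in all 4 classes, from -0.61 in astrocyte-like to -0.33 in oligodendrocyte-like cells. Asns, the member nearest in function, had too few UMIs for its own difference to be read. In red blood cell-like cells 2 genes of the list had 50 UMIs, and both were higher: Phgdh, the first enzyme of serine synthesis, had 121 EMF+AuNPs and 24 control UMIs, and Slc3a2 had 56 and 14. The part of free RNA in the class ratios of this list was not tested.

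The aminoacyl-tRNA synthetases and the tRNA exporter Xpot, also ATF4 targets in part, had medians of 0.07 in astrocyte-like, -0.18 in oligodendrocyte-like, -0.19 in endothelial-like and -0.31 in microglia-like cells. Of 13 genes in each class 1, 0, 0 and 0 were higher and 0, 0, 1 and 3 lower. Of these 13, Xpot had the highest ratio in each class, from 0.47 in endothelial-like to 0.86 in astrocyte-like cells. The methionyl-tRNA synthetase gene was listed as Mars1 but stands in the matrices as Mars, so the medians and counts leave it out. Mars had ratios of 0.68 in astrocyte-like, 0.26 in oligodendrocyte-like, 0.75 in endothelial-like and 0.48 in microglia-like cells. In endothelial-like cells its ratio was above that of Xpot, with overlapping intervals. The lowest were Nars in astrocyte-like (-0.56) and oligodendrocyte-like cells (-0.58), Lars in endothelial-like cells (-0.62) and Tars in microglia-like cells (-0.76), the synthetases of asparagine, leucine and threonine.

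ER chaperones and folding enzymes had medians of 0.09 in astrocyte-like, -0.20 in oligodendrocyte-like, -0.12 in endothelial-like and -0.08 in microglia-like cells, and members stood past 1.5-fold on both sides. Of 15 genes, 3, 1, 3 and 2 were higher and 3, 3, 2 and 1 lower. Dnajb9, a J-domain co-chaperone and XBP1 target that restrains IRE1, had the highest ratio in all 4 classes. It had 83.9 CPM in the EMF+AuNPs library and 36.2 CPM in the control library in endothelial-like cells, a log2 ratio of 1.19 (0.93 to 1.5), and ratios of 1.04, 1.00 and 0.97 in astrocyte-like, oligodendrocyte-like and microglia-like cells. Pdia4, a protein disulfide isomerase, had the lowest in 3 of them. Its ratios were -1.08 (-1.36 to -0.84) in astrocyte-like, -1.0 (-1.29 to -0.76) in oligodendrocyte-like and -0.86 (-1.24 to -0.52) in microglia-like cells. Hyou1, a large ER chaperone, was lowest in endothelial-like cells at -0.90 (-1.86 to -0.22).

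ER-associated degradation genes, the group that Herpud1 works with, had medians of 0.44 in astrocyte-like, 0.09 in oligodendrocyte-like, 0.41 in endothelial-like and 0.10 in microglia-like cells. Of 9 genes in each, 3, 1, 2 and 1 were higher and 1, 0, 1 and 1 lower. Edem2, which trims mannose from misfolded glycoproteins, was highest in astrocyte-like cells, with 40.2 CPM in the EMF+AuNPs library and 14.7 CPM in the control library, a log2 ratio of 1.39 (1.05 to 1.86). It was also highest in oligodendrocyte-like (0.78) and microglia-like cells (0.70), and Syvn1, the ubiquitin ligase HRD1, was highest in endothelial-like cells (0.70, 0.12 to 1.40). Ubxn4 was lowest in astrocyte-like (-0.68), oligodendrocyte-like (-0.46) and microglia-like cells (-0.67), and Os9, a lectin, in endothelial-like cells (-0.59). Among the sensors of the unfolded protein response, list medians lay between 0.05 and 0.16 in the 4 classes. Of 6 genes in each, 2 were higher in astrocyte-like and in endothelial-like cells, 0 in the other classes, and 1 was lower in each. Creb3l2 was lowest in astrocyte-like (-1.34), oligodendrocyte-like (-0.68) and endothelial-like cells (-0.61), and Atf6 in microglia-like cells (-0.61). Mbtps2, a protease that frees ATF6, was highest in astrocyte-like (1.14) and endothelial-like cells (1.34), and Atf6b in oligodendrocyte-like (0.58) and microglia-like cells (0.57).

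The relatives of Sesn2, Trib3, Herpud1, Chac1, Asns and Atf4 formed a list of their own. The list had medians of 0.15, 0.04, 0.00 and -0.31 in astrocyte-like, oligodendrocyte-like, endothelial-like and microglia-like cells, where 1, 1, 2 and 1 were higher and 0, 0, 2 and 2 lower of 8, 8, 8 and 6. Herpud2, the paralog of Herpud1, had the highest ratio of its list in all 4 classes: astrocyte-like cells had 48.6 CPM in the EMF+AuNPs library and 20.3 CPM in the control library, a log2 ratio of 1.22 (0.91 to 1.62). Endothelial-like cells had a ratio of 1.13, oligodendrocyte-like cells 0.95 and microglia-like cells 0.75. Sesn3, a relative of Sesn2, was lowest in astrocyte-like (-0.32), oligodendrocyte-like (-0.56) and endothelial-like cells (-1.0). Trib1, a relative of Trib3, was lowest in microglia-like cells, with 48.9 CPM in the EMF+AuNPs library and 85.5 CPM in the control library, a log2 ratio of -0.79 (-1.18 to -0.45).

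**Figure D4:**
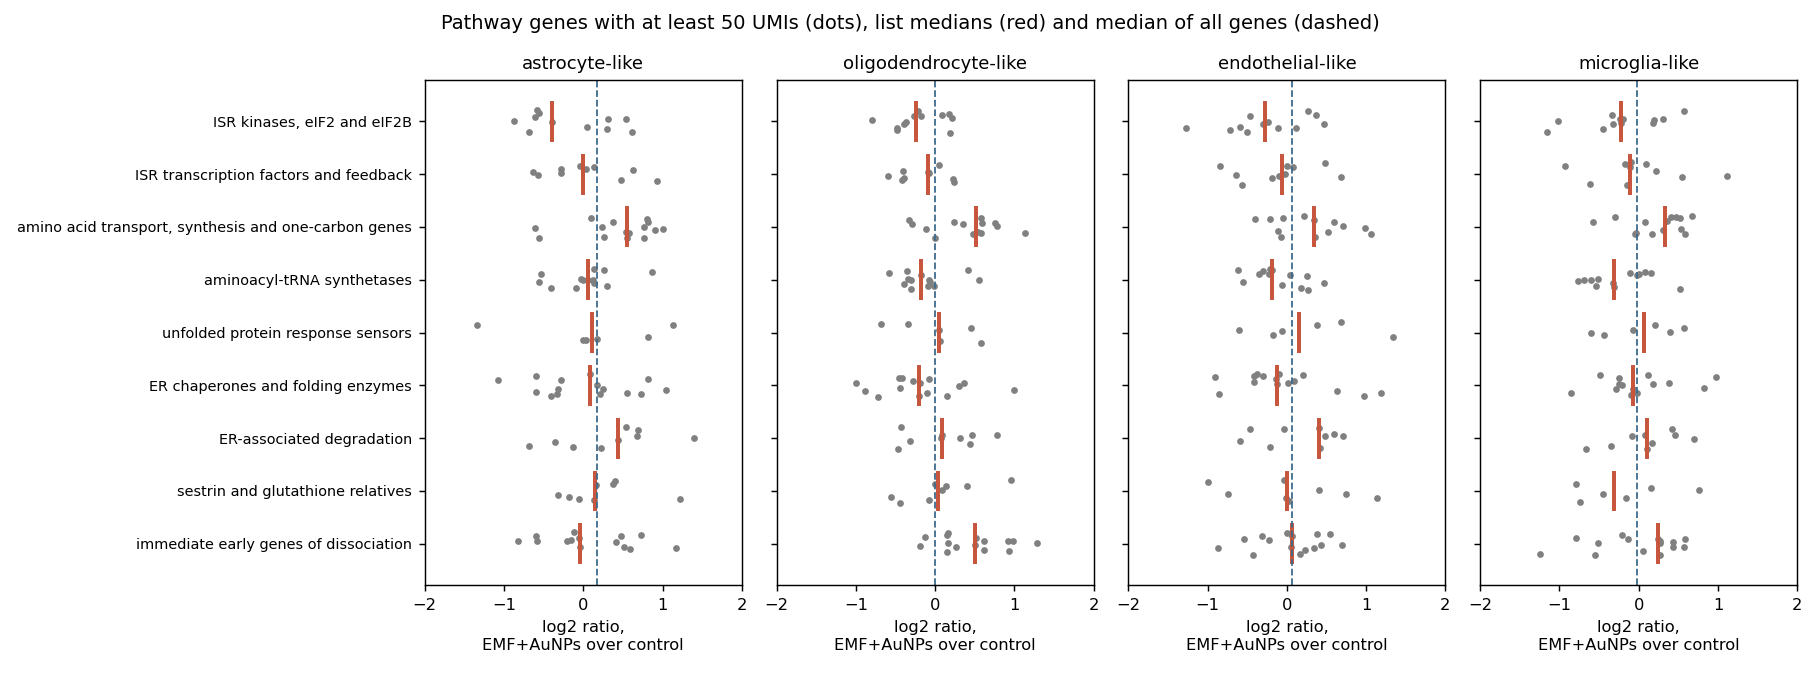
Log2 ratios of EMF+AuNPs over control of pathway genes with at least 50 UMIs in the class (dots, spread vertically only to keep them apart) in the 4 largest classes with a nucleus, with list medians as red bars and the median of all genes as a dashed line. The amino acid list has its median right of the dashed line in each class (0.55, 0.51, 0.34 and 0.33), and the kinase list left of it.

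Immediate early genes, which tissue dissociation is known to induce, were read beside the members. Their summed level was 11628 CPM in EMF+AuNPs and 12348 CPM in control endothelial-like cells and 15234 and 16825 CPM in microglia-like cells, with list medians of 0.06 and 0.24. Of 15 genes 1 was higher and 1 lower in endothelial-like cells, and 0 were higher and 2 lower in microglia-like cells. In oligodendrocyte-like cells, where Ddit3 was lower, the summed level was 1821 CPM in EMF+AuNPs and 1547 CPM in control and the median 0.50, with 6 of 15 higher and 0 lower, where 8.16% of all genes were higher and 9.43% lower. In astrocyte-like cells the median was -0.04, with 3 of 14 higher and 2 lower. In the 4 largest classes with a nucleus, the lowest ratio was that of Klf4 in microglia-like cells (-1.24, -1.42 to -1.08). Fos in endothelial-like cells had -0.87 (-0.95 to -0.80), and the highest was Zfp36 in oligodendrocyte-like cells (1.29, 0.94 to 1.88). In choroid plexus-like cells Fos was lower still, at -2.23 (-2.89 to -1.73). In border macrophage-like cells, where Atf4 was lower, the summed level was 10972 CPM in EMF+AuNPs and 17779 CPM in control, and 7 of 13 genes were lower. Pericyte-like cells, where Atf4 was lower and Xbp1 higher, had 3878 CPM in EMF+AuNPs and 5773 CPM in control, a median of -0.62 and 6 of 11 genes lower. In choroid plexus-like cells the sums were 528 CPM in EMF+AuNPs and 660 CPM in control, with 6 of 11 lower. Red blood cell-like cells had 857 CPM in EMF+AuNPs and 1478 CPM in control, with 5 of 7 lower. In these 4 classes 13.5%, 16.6%, 4.83% and 11.1% of all genes were lower. The part of dissociation in the members' ratios was not tested.

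Across the 10 compared classes in both libraries, the members were set beside all other genes with at least 200 UMIs by the Pearson correlation of log2(CPM + 1) over 20 points, which share libraries and differ in depth. Among the members themselves Xbp1 and Herpud1 were most alike, with r = 0.84, followed by Atf4 with Herpud1 (0.70) and with Ddit3 (0.68). Trib3 and Ddit3 had r = -0.10. Red blood cell-like cells, with at least 50% haemoglobin UMIs, were among the points. Of the compared classes they had the lowest levels of Atf4, Ddit3, Xbp1 and Herpud1 in both libraries. For Atf4 these were 20.6 CPM in EMF+AuNPs and 24.9 CPM in control. The part of these points in r was not tested, and r over all pairs of genes is not given here. The genes most like each member were Map3k3, Ccnl1 and Bcl10 for Atf4 (0.90 to 0.91) and Myo18a, Rngtt and Gpatch8 for Ddit3 (0.92 to 0.94). For Xbp1 they were Jade2, Sptlc2 and Ppib (0.91 to 0.92), and for Herpud1 Crlf2, Orai1 and Morc3 (0.90 to 0.94). Trib3 was most like Zfp366, Sgms1 and Bmx (0.88 to 0.93), also on few UMIs. Of its gated UMIs 36 of 40 in EMF+AuNPs and 68 of 79 in control were endothelial-like, so its correlations rest mostly on that class. Asns was most like Fgf13, Relb and Zfp623 (0.81 to 0.88), Sesn2 like Polr3g, Vcan and Chst15 (0.72 to 0.79), and Chac1 like Nxpe4, Cmpk2 and Stap2 (0.70 to 0.73), on very few UMIs of these 3 members.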

How the data were processed

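The deposited matrices hold whole-number UMI counts per gene and barcode, which the authors aligned to mm10. The submitters' processing notes name Cell Ranger 3.0.2 and STAR, and no label or header names the annotation. Of the 24130 symbols, 123 are joint symbols and 0 are mitochondrial. A cell needed 500 UMIs and 250 genes to be kept (6996 EMF+AuNPs and 21425 control cells; 7 and 158 left out).

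A cell was put in a class where at least 3 of its markers had a UMI and their summed share of the cell's UMIs was at least 1.5 times the mean share of the 2 libraries. Red blood cell-like cells had at least 50% haemoglobin UMIs. The marker names (159, of which 5 are not among the symbols) were listed first, and the scoring rule was set after the files were seen. Cells of several classes (995 EMF+AuNPs, 14.2%, and 3168 control, 14.8%) were left out, which also served for doublets, as no doublet caller was run. Cells of no class numbered 516 and 1237. A class was compared where each library had 50 or more of its cells.

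UMIs were summed per class and library. Intervals are exact Poisson for CPM, exact conditional binomial for ratios with nothing added (so the printed ratio need not be at their centre), Clopper-Pearson for shares and Newcombe for differences of shares. With 1 library per group no test was run, and nothing says how many animals a library holds. Cells were thinned to 1000 UMIs for shares, in 1 random draw per library, and shallower cells left out. The intervals of thinned shares leave out the error of that draw. Named genes were all members in every compared class, the highest and lowest ratio of each list in the 4 largest classes with a nucleus, and the 3 genes most like each member; Mars, Phgdh in red blood cell-like cells and fibroblast-like Xbp1 were named after their values were seen. The members and lists were chosen with earlier results of these data known. Listed genes not found under their symbols were Mars1, Selenos and Ufd1, of which Mars1 stands in the matrices as Mars. Python 3.11.15, numpy 2.4.6, scipy 1.17.1 and pandas 2.3.3 were used, and the ratio and interval code was tested on simulated data.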

Additional observations from a re-analysis of the deposited data

How the results depend on the processing

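Of 352 recomputed class ratios of members 0 that were past 1.5-fold changed sign; 21 values of 11 ratios within 1.5-fold did, among them Ddit3 in astrocyte-like (0.14), Trib3 in endothelial-like (-0.42) and Asns in microglia-like cells (up to 0.19). On cells thinned to 1000 UMIs 5 left their counting interval: Ddit3 at 0.14 in astrocyte-like and -0.81 in oligodendrocyte-like, Asns at -1.09 and Xbp1 at 0.28 in oligodendrocyte-like and Atf4 at -0.97 in microglia-like cells. Of 48 whole-library ratios 2 did: Atf4 to -0.33 on cells thinned to 1000 UMIs and Sesn2 to -0.088 with 10 CPM added. Counts of members past 1.5-fold rest on 1 or 2 genes and moved often; the cause was not tested. Members lower in whole libraries numbered 1 (0 in the report) relative to the class median and on thinned cells. Astrocyte-like cells had 1 higher, which became 2 at a marker share of the library mean and 0 with 4 markers, a 2-fold marker share, mixed cells kept, 1000 UMIs, the class median, 10 CPM, the top cell left out, thinning or the 50-UMI filter. Their 0 lower became 1 with 2 markers, either other marker share, 1000 UMIs or totals without haemoglobin and ribosomal protein genes, and 2 relative to the class median or without the top cell. In oligodendrocyte-like cells the 1 lower became 0 with mixed cells kept or 10 CPM and 2 on thinned cells. In endothelial-like cells the 1 higher became 0 with mixed cells kept, the class median or 10 CPM and 3 on thinned cells, and the 0 lower became 1 without the top cell and on thinned cells. In microglia-like cells the 1 higher became 2 at a 2-fold marker share and 0 with 10 CPM, thinning or the 50-UMI filter, and the 2 lower became 1 at the library mean share or the 50-UMI filter, 0 with 4 markers, 1000 UMIs or 10 CPM, and 4 on thinned cells. The marker share alternatives were chosen after seeing the data.

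No paired analysis was possible because each group has 1 library. Over all alternatives Ddit3 kept ratios of -0.81 to -0.55 in oligodendrocyte-like and -0.77 to -0.53 in microglia-like cells, Xbp1 0.56 to 0.69 in endothelial-like cells, Atf4 -0.97 to -0.42 in microglia-like cells, and Herpud1 0.39 to 0.64 in endothelial-like cells. Trib3, Chac1, Asns and Sesn2 have too few UMIs in most classes for a difference to be detectable. Thinned shares at 500 UMIs were lower in both libraries for each gene whose share moved, by construction.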
